A study of Mus musculus with 2 samples.

Results

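Bhlhe41 and Apoe B cells are the 381 B cells, 199 in the Advanced library and 182 in the Early library, that carried transcripts of Bhlhe41, most of them together with Apoe, and they are also called members. They were picked by raw unique molecular identifiers (UMIs), the tags that count captured transcripts: at least 1 UMI of Bhlhe41 and at least 3 UMIs of Bhlhe41 and Apoe summed. They came out of 12790 B cells (5485 Advanced and 7305 Early), among 16443 cell barcodes in all (8201 Advanced and 8242 Early). A B cell here had at least 2500 UMIs, with Cd79a, Cd79b and Ms4a1 making up at least 0.25% of them, no more than 1 UMI of the Cd3 genes, no Csf1r and fewer than 20 UMIs of Jchain. The 12409 B cells that did not meet the Bhlhe41 and Apoe condition (5286 Advanced and 7123 Early) are called other B cells.

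The cells came from the popliteal lymph nodes (PLNs), the nodes behind the knee that receive lymph from the lower leg, of male TNF-transgenic (TNF-Tg) mice kept on C57BL/6. The transgene adds TNF and an erosive arthritis follows, and both libraries are transgenic, so no comparison with wild-type nodes was possible. The Advanced library pooled 6 PLNs of 3 mice older than 8 months and the Early library pooled 6 PLNs of 3 mice of 5 to 6 months, and the nodes were digested with Accumax and sorted for Hoechst-positive, Sytox Green-negative cells with no gate on lineage. With 1 pooled library per stage, stage, age and library cannot be told apart, and no p-value is given.

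B-1 cells are B cells that arise largely before and around birth, live in the body cavities and spleen, renew themselves and make most of the natural IgM of serum. Bhlhe41, also called DEC2, is a basic helix-loop-helix repressor that also acts in the circadian clock, and in mice its loss together with that of its relative Bhlhe40 impairs the renewal of B-1a cells. Apoe encodes apolipoprotein E, a lipid carrier made in quantity by macrophages.

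The values that chose the cells are given as a description. The median Bhlhe41 count was 2 UMIs in Advanced members and 1 in Early members, and the highest was 17 in Advanced and 13 in Early. Exactly 1 Bhlhe41 UMI was found in 98 Advanced and 103 Early members, so for these the choice rests on a single molecule together with Apoe. The median Apoe count was 7 UMIs in Advanced members and 7.5 in Early members, with highest counts of 101 and 106, while 18 Advanced and 8 Early members had no Apoe at all. Just inside the condition stood 24 Advanced and 27 Early cells with a sum of exactly 3 UMIs, and just outside it 69 Advanced and 34 Early cells with Bhlhe41 and a sum of 2. The cells just inside held Apoe at 92.3 (Advanced) and 130 (Early) UMIs per 1000000 UMIs, and those just outside 61.1 and 69.3.

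UMIs per 1000000 UMIs of a group of cells summed together are given as CPM throughout. Bhlhe41 (chr6:145858243-145865558, GRCm38) stood at 189.6 CPM in Advanced and 168.9 in Early members, against 4.50 and 1.98 CPM in other B cells. Apoe (chr7:19696109-19699188) stood at 1290 and 1314 CPM in members, against 198 and 299 CPM in other B cells. Apoe was thus not particular to the members: 39.5% of Advanced and 43.8% of Early other B cells had an Apoe UMI.

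Free RNA in droplets can put a UMI into a cell that does not express the gene, and T cells, which should lack B cell genes, were used to read it. T cells were cells with at least 4 Cd3 UMIs and under 0.05% of UMIs from the B cell genes. A Bhlhe41 UMI was found in 0.621% of 1128 Advanced and 0.599% of 167 Early T cells, against 3.35% of Advanced and 1.35% of Early other B cells. An Apoe UMI was found in 11.6% of Advanced and 8.98% of Early T cells. The full condition on Bhlhe41 and Apoe was met by 2 of the 1128 Advanced and 0 of the 167 Early T cells (0 of 167 allows a share of up to 2.18%, the end of the exact interval), although T cells were about as deep as the members, with medians of 11080.5 and 10674 UMIs.

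The members were deeper than other B cells. Their median was 10921 UMIs in Advanced and 9906 in Early, against 7367.5 and 6537 UMIs in other B cells. Above 15000 UMIs stood 24.6% of Advanced and 18.7% of Early members, against 5.58% and 3.00% of other B cells. Mitochondrial genes took 5.71% (Advanced) and 5.84% (Early) of their UMIs, against 5.32% and 5.20%. Since the condition asks for a fixed number of UMIs, a deeper cell meets it more easily, and deeper barcodes can also hold more than 1 cell; the part of either in the results was not tested, and values without cells above 15000 UMIs are given beside several of the genes.

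Members made up 3.63% of Advanced B cells (95% exact Clopper-Pearson interval 3.15 to 4.16%) and 2.49% of Early B cells (2.15 to 2.88%), an Advanced over Early ratio of 1.46 (1.19 to 1.79). All intervals here cover counting error only, not the differences between mice, and UMIs of 1 cell are not independent. As a share of all barcodes the values were 2.43% in Advanced and 2.21% in Early, a ratio of 1.10 (0.894 to 1.35). Within cells of like depth the order was not steady. At 5000 to 7500 UMIs members were 1.51% of Advanced and 0.933% of Early B cells, a ratio of 1.62 (1.03 to 2.53), at 7500 to 10000 UMIs they were 3.01% and 3.96%, a ratio of 0.759 (0.495 to 1.16), and above 15000 UMIs 14.2% and 13.7%. When every cell was thinned to 2500 UMIs, 40 Advanced and 42 Early cells met the condition, 0.729% and 0.575% of B cells, and with Early cells weighted to the Advanced depths the ratio was 1.07. A larger share at the Advanced stage was therefore not separable from depth in these libraries.

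**Figure D1:**
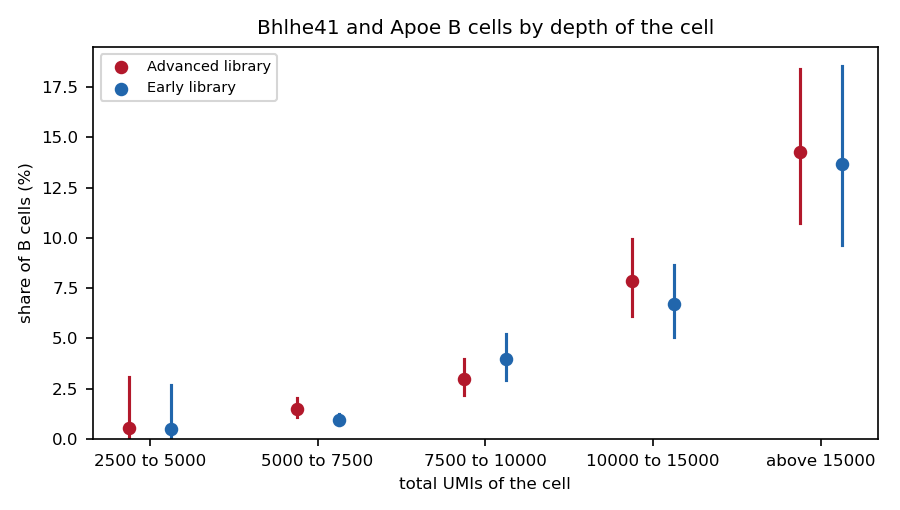
Share of B cells (%, y axis) that met the Bhlhe41 and Apoe condition, by the total UMIs of the cell (x axis, 5 ranges), with points for the Advanced and the Early library and bars for 95% exact intervals. The share climbs with depth in both libraries, to 14.2% in Advanced and 13.7% in Early above 15000 UMIs, and the intervals of the 2 libraries overlap in every range.

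Across genes, the members were set against other B cells within each library. A gene was called higher or lower where it reached 10 CPM in the members or in the other B cells in each library and the 95% interval of the ratio of CPM lay wholly beyond 2-fold in the same direction in both. Of 6821 genes measured at that level, 49 were higher in members (0.718%) and 1 was lower (0.0147%). A gene under 10 CPM in other B cells could enter only through its level in members, so part of this split comes from the filter. Gm26704, Cblc and Rbm47 are among the genes that entered this way. Of the 6821 genes, 1853 had ratios above 1 and 2707 below 1 in both libraries. Of the 6510 genes with at least 10 CPM in other B cells, these were 1608 and 2707. Calls in a single library would have numbered 81 higher and 7 lower of 7184 genes in Advanced, and 82 higher and 3 lower of 6978 genes in Early. The median log2 ratio over the 6821 genes was -0.05 in Advanced and -0.03 in Early, so the totals of members and other B cells were closely balanced.

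The gene with the largest ratio was Gm26704 (chr15:39003285-39006185, minus strand), annotated as a long noncoding RNA from a bidirectional promoter. It had 34 UMIs in 14 Advanced and 31 UMIs in 11 Early members, 13.3 and 14.96 CPM, against 0.178 and 0.113 CPM in other B cells. The ratios were 74.9 (34.0 to 187) in Advanced and 132 (54.4 to 388) in Early, so the transcript was close to absent from other B cells and sat in a minority of the members. Gm26704 overlaps Fzd6, a Frizzled receptor for Wnt ligands, on the opposite strand, and Fzd6, looked up after these values were seen, had 21 UMIs in Advanced and 6 in Early members, 8.24 and 2.90 CPM, against 0.156 and 0.0753 CPM in other B cells. The sources used here do not state whether counting used strand, so reads of the 2 genes may not be separable.

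Several leading genes act in RNA editing, ubiquitination and peptide or lipid processing. Rbm47 (chr5:66016549-66173118), an RNA-binding protein and cofactor of C-to-U RNA editing, had 46 UMIs in 29 Advanced and 43 UMIs in 32 Early members, 18.1 and 20.8 CPM, against 1.63 and 1.73 CPM in other B cells, ratios of 11.1 (7.50 to 16.3) and 11.98 (8.14 to 17.4). Cblc (chr7:19778881-19796809), a Cbl-family ubiquitin ligase whose gene lies close to Apoe on the same chromosome, stood at 14.1 and 11.6 CPM in members, against 0.713 and 0.866 CPM, ratios of 19.8 and 13.4. Cpd, the membrane-bound carboxypeptidase D, stood at 13.7 and 10.6 CPM, against 1.27 and 0.998 CPM, ratios of 10.8 and 10.6. Both Cblc and Cpd were just above 10 CPM, and neither passed without cells above 15000 UMIs, where the geometric means of their ratios over the libraries were 12.8 and 10.6. Fah, the last enzyme of tyrosine breakdown, stood at 18.1 and 11.1 CPM, against 2.16 and 2.11 CPM, and it likewise did not pass without those cells, at a geometric mean ratio of 4.33. Lipc, hepatic lipase, stood at 21.98 and 16.9 CPM, against 3.43 and 3.65 CPM, and its geometric mean ratio of 5.44 fell to 2.89, no longer past the rule, with other B cells weighted to the members' depths.

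Receptors and adhesion genes formed the next group. Ccr1 (chr9:123962124-123968692), the receptor for CCL3 and CCL5, had 127 UMIs in 63 Advanced and 104 UMIs in 53 Early members, 49.8 and 50.2 CPM, against 9.76 and 8.55 CPM in other B cells, ratios of 5.11 (4.16 to 6.24) and 5.87 (4.70 to 7.28). Itgb1 (chr8:128685654-128733200), the beta 1 integrin chain, had 260 UMIs in 88 Advanced and 122 UMIs in 63 Early members, 102 and 58.9 CPM, against 20.01 and 15.4 CPM, ratios of 5.10 and 3.83. Nrp2, a receptor for semaphorins and VEGF, stood at 18.8 and 14.96 CPM, against 3.97 and 2.75 CPM. Cd300lf, an inhibitory receptor that binds membrane lipids, stood at 23.2 and 24.1 CPM, against 4.37 and 3.43 CPM. Actn1, the actin cross-linker alpha-actinin 1, stood at 14.5 and 17.4 CPM, against 2.495 and 1.45 CPM, and T cells held 90.0 CPM in Advanced and 45.6 in Early.

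Lysmd2, a LysM-domain protein, stood at 25.9 and 16.9 CPM in members, against 3.41 and 3.13 CPM in other B cells. Gm40634, a long intergenic noncoding RNA, stood at 19.6 and 13.03 CPM, against 2.90 and 2.505 CPM. The only gene called lower was Tmem108 (chr9:103482947-103761837), a transmembrane protein, with 78 UMIs in 46 Advanced and 84 UMIs in 50 Early members. Its levels were 30.6 and 40.5 CPM in members, against 124 and 137 CPM in other B cells, ratios of 0.246 (0.194 to 0.308) and 0.297 (0.236 to 0.368).

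**Figure D2:**
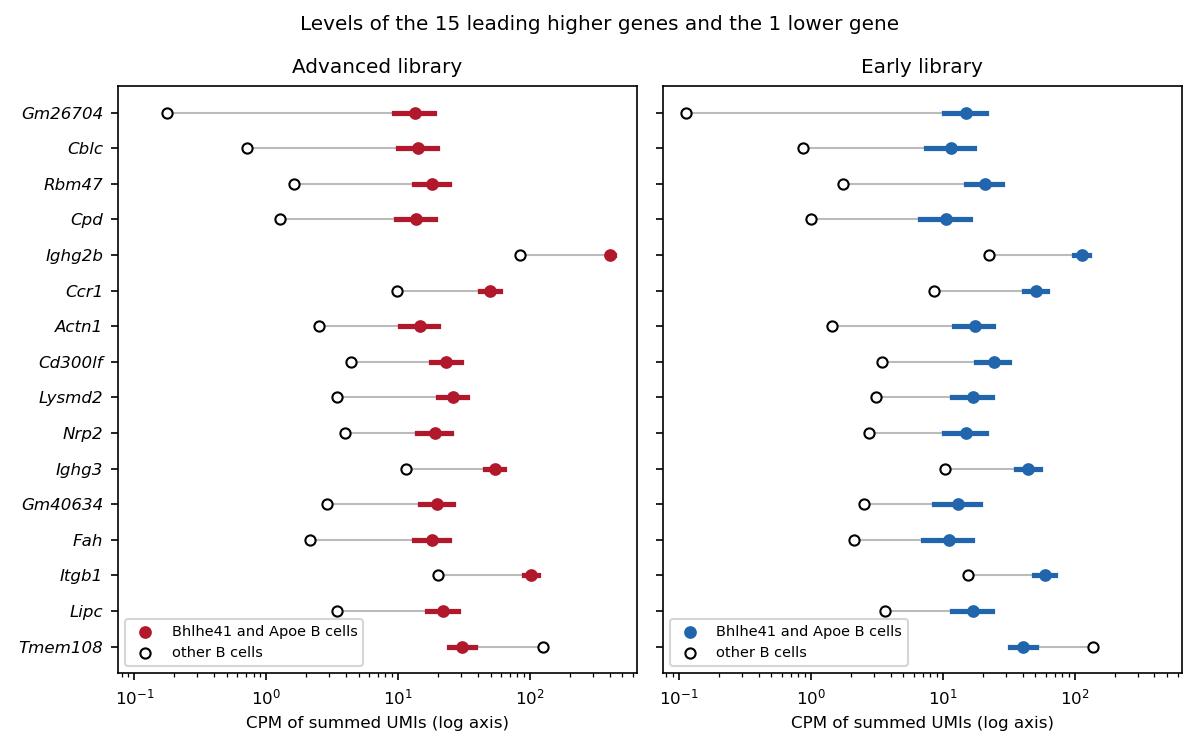
Level in CPM of summed UMIs (x axis, log scale) of the 15 leading higher genes and of Tmem108 (rows) in Bhlhe41 and Apoe B cells (filled points) and other B cells (open points), with the Advanced library on the left and the Early library on the right. The 15 genes were chosen as higher in both libraries and Tmem108 as lower, so the side on which their filled points lie follows from the choice. The levels run from Gm26704 at 13.3 and 14.96 CPM against 0.178 and 0.113 CPM to Ighg2b at 403 and 113 CPM against 83.9 and 22.4 CPM.

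The label B1-like was checked against a list of 20 genes linked to B-1 cells, with Bhlhe41 itself, which chose the cells, set aside. Lists are counted here over genes with at least 10 CPM in other B cells in both libraries, so that no gene enters through a high level in members, a filter added after seeing the data. Of all 6510 such genes, 24.7% had ratios above 1 and 41.6% below 1 in both libraries, with a median log2 ratio of -0.06 in Advanced and -0.04 in Early. Of the B-1 list 8 genes were at that level, of which 7 had ratios above 1 and 1 below 1 in both libraries, with a median log2 ratio of 1.08 in Advanced and 1.18 in Early. Those called higher were Cd9 and Ptpn22, and also Spn, Plscr1 and Ctla4, which reached 10 CPM in members only. Spn (chr7:127132232-127137823) encodes CD43, a surface sialoprotein used to sort B-1 cells, and had 77 UMIs in 50 Advanced and 27 UMIs in 24 Early members, 30.2 and 13.03 CPM, against 6.59 and 3.01 CPM in other B cells. Its ratios were 4.58 (3.52 to 5.91) and 4.32 (2.76 to 6.53). Plscr1, a phospholipid scramblase, stood at 16.9 and 29.4 CPM, against 3.81 and 3.597 CPM. Ctla4, an inhibitory receptor better known from T cells, stood at 13.7 and 11.6 CPM, against 3.59 and 1.32 CPM, while T cells held 83.7 and 168 CPM. Ptpn22, a phosphatase that dampens antigen receptor signalling, stood at 86.3 and 68.5 CPM, against 25.2 and 24.1 CPM.

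Other B-1 genes were too scarce to be called, or were under 2-fold. Zbtb32, a repressor that restrains recall responses of B cells, had 58 UMIs in 28 Advanced and 14 UMIs in 11 Early members, 22.8 and 6.76 CPM, against 0.601 and 0.546 CPM in other B cells, and stayed out because Early members were under 10 CPM. Cd5, the surface protein that defines B-1a cells, had 17 UMIs in 14 Advanced and 10 UMIs in 6 Early members, 6.67 and 4.83 CPM, against 1.69 and 0.942 CPM. Itgam, the CD11b chain carried by B-1 cells of the body cavities, had 9 UMIs in Advanced and 1 in Early members, and Tppp3 was at 0 in both. Nfatc1, a calcium-regulated transcription factor, gave ratios of 1.88 and 2.45. Arid3a, another transcription factor, gave 2.04 and 1.61. The heavy chain V genes typical of B-1a cells, Ighv11-2 and Ighv12-3, led in 0 and 1 of 27 Advanced members with a called V gene and in 0 and 0 of 21 Early members. Of the B-1 genes at 10 CPM in other B cells, Cd9 and Ptpn22 were thus called higher, while Spn, Plscr1 and Ctla4 passed through their level in members. Cd5 was higher in members in both libraries but at a few UMIs. Ighv11-2 and Ighv12-3 were scarce in other B cells too, leading in 0 and 0 of 569 Advanced and 2 and 1 of 620 Early ones, so they do not separate the groups. The cells are therefore called by their 2 leading genes rather than by a cell type.

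Genes of memory and tissue B cells were the next list. Of 15 at 10 CPM in other B cells, 12 had ratios above 1 and 2 below 1 in both libraries, beside 24.7% and 41.6% of all genes, with a median log2 ratio of 0.33 in Advanced and 0.37 in Early. The genes called higher were Zbtb20, S100a6, Itgb1 and Ahnak, the last of which was under 10 CPM in Early other B cells. Zbtb20, a zinc finger repressor expressed in B-1, germinal centre and plasma cells, had 759 UMIs in 145 Advanced and 524 UMIs in 113 Early members, 298 and 253 CPM, against 84.5 and 76.9 CPM in other B cells, ratios of 3.53 (3.26 to 3.81) and 3.29 (2.996 to 3.602). Ahnak, a large scaffold protein, stood at 62.8 and 44.9 CPM, against 16.8 and 7.14 CPM. S100a6, a calcium-binding protein, stood at 118 and 155 CPM, against 42.3 and 33.1 CPM. Nt5e, which encodes CD73, stood at 18.1 and 5.79 CPM, against 1.80 and 1.77 CPM, and Cd80, a costimulatory ligand of memory B cells, at 10.99 and 9.17 CPM, against 1.49 and 0.923 CPM; both were under 10 CPM in Early members and were not called.

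Of 15 genes linked to age-associated B cells, 5 were at 10 CPM in other B cells. Of these, 4 had ratios above 1 and 1 below 1 in both libraries, beside 24.7% and 41.6% of all genes. Zeb2 and Fcrl5 were called higher, beside 0.718% of all 6821 genes measured, and a list of 5 genes is too short for more than a description. Zeb2, a zinc finger transcription factor, stood at 94.98 and 58.4 CPM in members, against 31.1 and 21.6 CPM in other B cells. Fcrl5, an Fc receptor-like protein of innate-like B cells, stood at 90.3 and 80.6 CPM, against 28.2 and 28.8 CPM. Tbx21 and Itgax, the genes by which age-associated B cells are usually defined, had 4 and 3 UMIs in Advanced and 3 and 2 UMIs in Early members, so neither could be compared.

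Follicular B cell genes ran the other way. All 16 were at 10 CPM in other B cells, and 13 had ratios below 1 in both libraries (81.3%, beside 41.6% of all genes), 1 was above (Fcmr, the IgM Fc receptor, 1.27 and 1.26) and none was past 2-fold, with a median log2 ratio of -0.41 in Advanced and -0.49 in Early. Fcer2a, which encodes CD23, stood at 157 and 163 CPM in members, against 349 and 322 CPM in other B cells, ratios of 0.448 (0.405 to 0.495) and 0.505 (0.452 to 0.562). Ighd, the IgD constant gene, stood at 348 and 430 CPM, against 666 and 675 CPM. Vpreb3, a surrogate light chain relative, stood at 113 and 53.6 CPM, against 243 and 219 CPM. Satb1, a chromatin organiser, gave 0.478 and 0.544, and Ebf1, the B lineage transcription factor, 0.651 and 0.707.

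Of 13 marginal zone B cell genes at that level, 5 had ratios above 1 in both libraries (38.5%, beside 24.7% of all genes) and 5 below (38.5%, beside 41.6%). Cd9 and Plac8 were called higher. Cd9, a tetraspanin of marginal zone and B-1 cells, stood at 44.0 and 56.5 CPM in members, against 12.9 and 17.3 CPM in other B cells. Plac8, a small cysteine-rich protein, stood at 996 and 1168 CPM, against 466 and 527 CPM. Cr2, which encodes CD21, stood at 203 and 245 CPM, against 390 and 420 CPM, and Hes1, a Notch target, at 61.2 and 65.6 CPM, against 152 and 139 CPM.

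Other B cells with at least 2 Cr2 UMIs and no Fcer2a, the cells nearest to a marginal zone profile (642 Advanced and 1113 Early), were taken beside those with at least 2 Fcer2a UMIs (3294 Advanced and 3948 Early). Of the 49 genes higher in members, 34 (69.4%) were higher in the Cr2-high than in the Fcer2a-high cells in both libraries, beside 1663 of all 6821 genes (24.4%). Some of the 49, Gm26704 and Cblc among them, were under 10 CPM in other B cells, so their order rests on few UMIs. The 49 were also chosen as low in other B cells, most of which were Fcer2a-high (3294 of 5286 Advanced and 3948 of 7123 Early). The share over all genes is therefore not a matched background, and no conclusion is drawn from the 34. Ahr, a ligand-activated transcription factor, stood at 104 and 141 CPM in members, 72.9 and 103 CPM in Cr2-high cells and 33.3 and 39.6 CPM in Fcer2a-high cells. Fcrl5 and Cd9 kept the same order, with 48.2 and 55.1 CPM of Fcrl5 and 31.0 and 37.0 CPM of Cd9 in Cr2-high cells. Zbtb20 differed little between the 2 groups, with 84.8 and 82.2 CPM in Cr2-high and 79.8 and 74.2 CPM in Fcer2a-high cells. Spn did not keep the order, with 4.28 and 2.07 CPM in Cr2-high and 6.69 and 3.04 CPM in Fcer2a-high cells.

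Further genes called higher included cytokine receptor, cell cycle and secreted genes. Csf2rb, the shared receptor chain for GM-CSF, IL-3 and IL-5, stood at 26.3 and 23.6 CPM in members, against 7.82 and 5.52 CPM in other B cells. Ccnd2, which encodes cyclin D2, stood at 124 and 96.5 CPM, against 47.5 and 28.9 CPM. Dnase1l3, a secreted nuclease that degrades DNA in chromatin, stood at 18.8 and 29.9 CPM, against 4.30 and 2.69 CPM. Cfp, the complement protein properdin, stood at 34.5 and 40.1 CPM, against 13.3 and 7.99 CPM. A530032D15Rik was also called, but it overlaps C130026I21Rik and Gm10553, and reads may be shared between such copies.

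No list of signalling or metabolic genes had a member past 2-fold outside the genes already named. All 18 BCR signalling genes, 12 MHC class II genes and 18 oxidative phosphorylation genes were measured and none was called. Of all 6821 genes only 0.718% were called higher and 0.0147% lower, so lists of this size would seldom hold a called gene. MHC class II genes were below 1 in both libraries for 10 of 12 (83.3%, beside 41.6% of all genes), with H2-Aa at ratios of 0.947 and 0.888. Of 13 measured lipid handling genes none was called, which is likewise near the share over all genes. Il10, the regulatory cytokine made by some B-1 cells, had 10 UMIs in 6 Advanced and 24 UMIs in 14 Early members, 3.92 and 11.6 CPM, against 0.891 and 0.735 CPM, and was not called because Advanced members were under 10 CPM. Tlr7, a sensor of single-stranded RNA, gave ratios of 1.41 and 1.71.

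**Figure D3:**
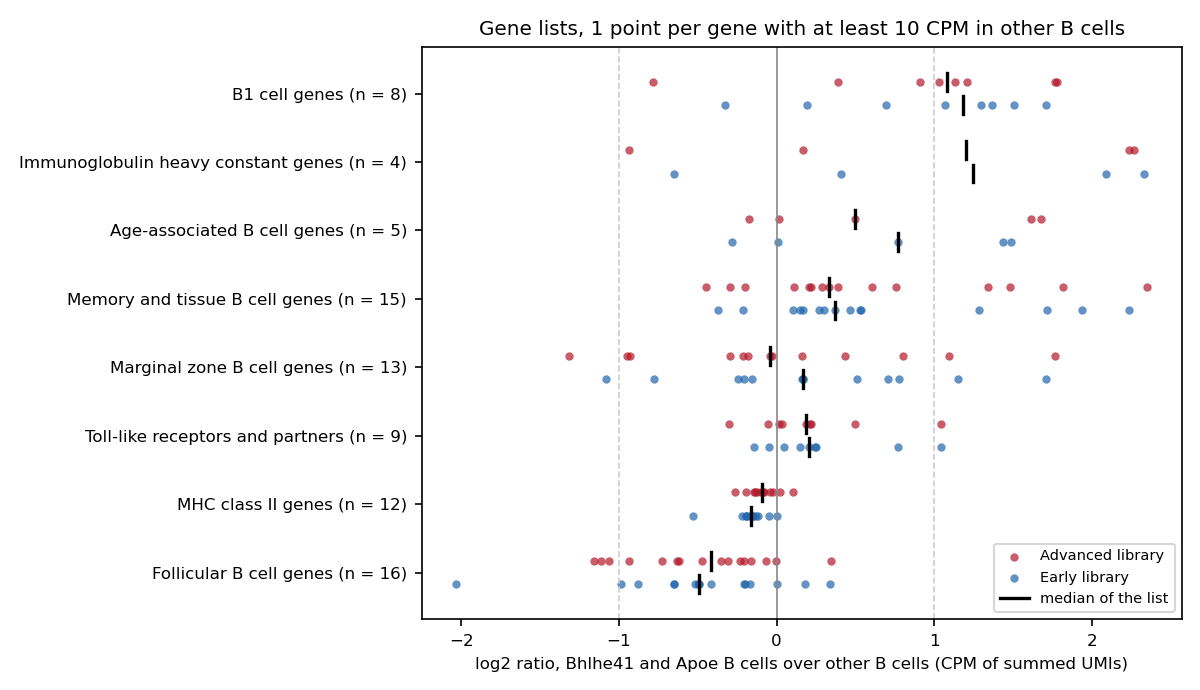
log2 ratio of CPM, Bhlhe41 and Apoe B cells over other B cells (x axis), for the genes of each list with at least 10 CPM in other B cells (rows), with 1 point per gene and library and a black bar at the list median. The medians of the heavy constant genes (1.20 in Advanced and 1.25 in Early, 4 genes) and the B-1 genes (1.08 and 1.18) lie highest among the lists drawn, and the follicular genes (-0.41 and -0.49) lie lowest.

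Markers of other cells that the sort could hold were summed as lists. Of 18 macrophage and monocyte markers, 8 were at 0 in Advanced and 9 in Early members, C1qa, C1qb, C1qc, Marco, Cd14 and Fcgr1 among them, and their summed level was 78.5 and 64.7 CPM in members, against 65.7 and 48.5 CPM in other B cells. Of 14 T cell markers, 2 in Advanced and 7 in Early members were at 0, Cd4 and Cd28 in both libraries, and the sum was 69.1 and 36.7 CPM, against 77.3 and 26.5 CPM. The 8 plasma cell markers summed to 155 and 143 CPM, against 152 and 134 CPM. The 10 NK and innate lymphoid markers, of which 5 in Advanced and 7 in Early members were at 0, summed to 25.5 CPM in Advanced members, against 47.1 CPM, and to 18.8 CPM in Early members, against 6.33 CPM, and 31 of the 36 Early UMIs of Klrd1, an NK receptor chain, were in 1 cell. The 13 dendritic cell markers, of which 1 and 2 were at 0, summed to 63.97 CPM in Advanced members, against 69.3 CPM, and to 68.5 CPM in Early members, against 40.2 CPM. Macrophage and monocyte markers were thus higher in members in both libraries, at ratios of 1.19 (1.03 to 1.38) in Advanced and 1.33 (1.11 to 1.59) in Early. T cell, NK and dendritic markers were higher in members in Early, T cell markers at 1.38 (1.08 to 1.74), and not in Advanced. The part of all these markers in the results was not tested beyond the removal of cells given next. Csf1r, the Cd3 genes and Jchain were limited by the choice of cells. Without cells that held a UMI of C1qa, C1qb, C1qc, Cd68, Adgre1, Trac, Trbc2 or Nkg7, 44 genes were higher and 1 lower.

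Immunoglobulin heavy chain genes gave a further difference. Of 7 heavy constant genes measured, Ighg2b, Ighg2c and Ighg3 were called higher, beside 0.718% of all 6821 genes. Ighg2c was under 10 CPM in Early other B cells and passed there through its level in members. Ighg2b (chr12:113302965-113307933) had 1026 UMIs in 118 Advanced and 234 UMIs in 33 Early members, 403 and 113 CPM, against 83.9 and 22.4 CPM in other B cells, ratios of 4.798 (4.47 to 5.14) and 5.03 (4.35 to 5.79). The sums rest in part on single cells, since 1 Advanced member held 210 and 1 Early member 56 of these UMIs. T cells held 419 CPM of Ighg2b in Advanced and 6.52 CPM in Early, but 1 Advanced T cell barcode of 114402 UMIs, with 9760 UMIs of Ighm and 3107 of Jchain beside 48 of Cd3 genes, held 5310 of the 5994 UMIs. Without that barcode, left out after seeing the data, Advanced T cells held 48.2 CPM. Ighg3 (chr12:113356224-113361232) stood at 53.8 and 44.4 CPM, against 11.4 and 10.4 CPM. Ighg2c stood at 74.2 and 30.9 CPM, against 25.3 and 2.11 CPM, and because the IgG constant genes are near-identical over long stretches, the division of reads between them is uncertain. Ighm stood at 2386 and 2602 CPM, against 2123 and 1965 CPM.

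An Ighg2b UMI was found in 59.3% of Advanced and 18.1% of Early members, 42.6% and 10.4% of other B cells, and 42.7% and 8.98% of T cells, so single UMIs do not tell the class of a cell, and each cell was given the class of the heavy constant gene with the most UMIs in it, with at least 3 UMIs. IgM led in 161 of 199 Advanced (80.9%) and 164 of 182 Early members (90.1%). An IgG gene led in 34 Advanced members (17.1%, 12.1 to 23.0%) and 10 Early members (5.49%, 2.67 to 9.87%), against 68 of 5286 Advanced (1.29%, 1.00 to 1.63%) and 40 of 7123 Early other B cells (0.562%, 0.401 to 0.764%). The ratios of members over other B cells were 13.3 (8.53 to 20.3) in Advanced and 9.78 (4.36 to 19.9) in Early. In T cells an IgG gene led in 14 of 1128 Advanced cells (1.24%) and 0 of 167 Early cells. T cells should have no heavy chain transcripts of their own for free RNA to outnumber, so these shares are not the background of B cells. With at least 10 UMIs of the leading gene, IgG led in 25 Advanced members (12.6%), 53 Advanced other B cells (1.00%) and 0 Advanced T cells. The Early values were 8 (4.40%), 25 (0.351%) and 0.

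Members were 3.63% of Advanced B cells but 33.3% (24.3 to 43.4%) of the B cells with a leading IgG gene, and 2.49% but 20% (10.03 to 33.7%) in Early. Ighg2b led in 26 of the 34 Advanced and 8 of the 10 Early IgG members, against 30 of 68 Advanced and 23 of 40 Early IgG other B cells, in which Ighg1 led in 32 and 11. The Cr2-high cells held an IgG class in 2 of 642 Advanced and 3 of 1113 Early cells. The Fcer2a-high cells held one in 35 of 3294 (1.06%) and 14 of 3948 (0.355%).

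B cells with no Bhlhe41 UMI but at least 3 of Apoe, the cells nearest to the members by the values that chose them, lay between. An IgG gene led in 44 of 819 such Advanced cells (5.37%, 3.93 to 7.15%) and 28 of 1471 such Early cells (1.90%, 1.27 to 2.74%), so they held most of the 68 Advanced and 40 Early IgG other B cells. The ratios of members over these cells were 3.18 (1.97 to 5.09) in Advanced and 2.89 (1.25 to 6.12) in Early, a comparison added after seeing the data. These cells were shallower than the members, with medians of 8082 and 7043 UMIs against 10921 and 9906, and the part of depth was not tested. The Advanced over Early ratio of the IgG share was 3.11 (1.502 to 7.06) in members and 2.29 (1.53 to 3.48) in other B cells, with overlapping intervals.

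**Figure D4:**
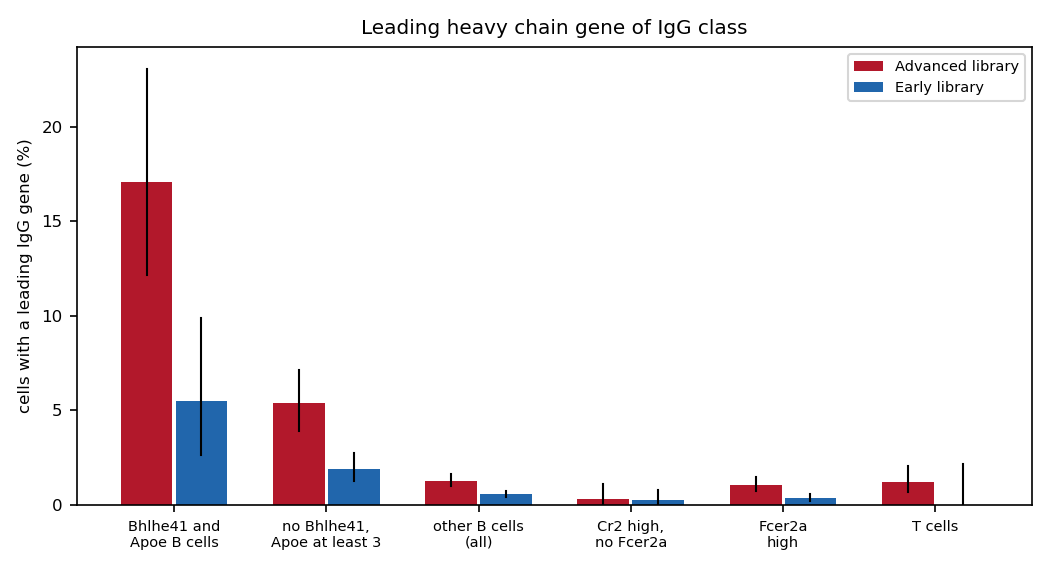
Share of cells whose leading heavy constant gene is an IgG gene (%, y axis) by cell group (x axis), with bars for the Advanced and the Early library and lines for 95% exact intervals. Members reach 17.1% in Advanced and 5.49% in Early, B cells with no Bhlhe41 and at least 3 Apoe UMIs stand at 5.37% and 1.90%, all other B cells at 1.29% and 0.562%, and T cells at 1.24% and 0%.

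The IgG members were lower in Mki67 and Bcl6 and higher in Plac8 and Ccr1 than the other IgG B cells. Mki67, a proliferation marker, stood at 82.3 (Advanced) and 21.1 CPM (Early) in IgG members, against 416 and 411 CPM in IgG other B cells, ratios of 0.198 (0.142 to 0.270) and 0.0512 (0.0105 to 0.152). Bcl6, the germinal centre repressor, stood at 3.66 and 21.1 CPM, against 89.4 and 91.9 CPM. Plac8 stood at 1010 and 899 CPM in IgG members, against 130 and 122 CPM in IgG other B cells, and Ccr1 at 40.2 and 35.1 CPM, against 3.31 and 3.83 CPM. With only 34 Advanced and 10 Early IgG members these values rest on few cells. The Early IgG members held 142384 UMIs in all, so 21.1 CPM there is a few UMIs. Plac8 and Ccr1 had already been called higher in members than in other B cells, so their values here are not a separate result. The 4 genes are examples, and no share over all genes is given.

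The comparison was also made without IgG cells. With IgM-leading cells on both sides, the ratio of members over other B cells was 5.11 in Advanced and 5.82 in Early for Ccr1, 9.13 and 11.1 for Rbm47, and 3.13 and 3.20 for Zbtb20. With all IgG-leading cells removed, 35 genes were higher and 1 was lower, and all 35 were among the 49. Of the 16 named genes, Gm26704, Cblc, Cpd, Ighg2b and Ighg3 no longer passed in that setting. As geometric means of the 2 libraries, with the value with all cells after it, their ratios were 91.6 against 99.6 for Gm26704, 12.8 against 16.3 for Cblc, 7.16 against 10.7 for Cpd, 3.02 against 4.47 for Ighg3 and 1.12 against 4.91 for Ighg2b.

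Light chain use also differed, clearly in Early and less so in Advanced. A lambda constant gene led over Igkc in 20 of 197 Advanced (10.2%, 6.31 to 15.2%) and 29 of 180 Early members (16.1%, 11.1 to 22.3%), against 329 of 5270 Advanced (6.24%, 5.60 to 6.93%) and 361 of 7102 Early other B cells (5.08%, 4.58 to 5.62%). The intervals overlapped in Advanced and did not in Early. Iglc1, the lambda 1 constant gene, stood at 1108 and 1017 CPM in members, against 558 and 431 CPM in other B cells. A leading light chain V gene could be read in 58 Advanced and 39 Early members, with 34 and 18 different genes. Iglv1 led in 4 of 58 Advanced (6.90%) and 10 of 39 Early members (25.6%, 13.04 to 42.1%). In other B cells it led in 67 of 843 Advanced (7.95%) and 58 of 726 Early cells (7.99%), so it was more frequent in members in Early only. Igkv1-117 led in 5 of 58 and 7 of 39 members, against 72 of 843 and 54 of 726 other B cells. Igkv2-109 led in 7 of 58 and 2 of 39 members, against 31 of 843 and 18 of 726. A heavy V gene could be read in 27 Advanced and 21 Early members, with 22 and 16 different genes, so the members were not 1 clone by this reading.

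Bhlhe41 is known to bind the E-box CACGTG, and the promoters of the higher genes were searched for it. Windows of 300 bases, 250 before to 50 after an annotated start, came from RefSeq on GRCm38.p6 and were found for 35 of the 49 genes. CACGTG, which reads the same on both strands, was found in 3 of the 35 (8.57%), beside 2187 of 27025 genes with a window (8.09%), so it was about as frequent as in all genes. The 3 were Kcnn4, S100a6 and Snx18, and the window of Bhlhe41 itself also holds one, while none was found in the 3 Apoe windows. Kcnn4, a calcium-activated potassium channel, stood at 19.2 and 16.9 CPM in members, against 5.95 and 4.67 CPM in other B cells. Snx18, a sorting nexin, stood at 32.6 and 33.8 CPM, against 10.5 and 9.93 CPM. A match is a description of the letters and not of binding. The 4 windows are shown because they are the ones that hold the E-box, 5′ to 3′ on the strand of the gene, with CACGTG in capitals; they are, in order, chr6:145865371-145865670 (minus strand), chr7:24370013-24370312 (plus), chr3:90612644-90612943 (plus) and chr13:113618515-113618814 (minus).
Bhlhe41: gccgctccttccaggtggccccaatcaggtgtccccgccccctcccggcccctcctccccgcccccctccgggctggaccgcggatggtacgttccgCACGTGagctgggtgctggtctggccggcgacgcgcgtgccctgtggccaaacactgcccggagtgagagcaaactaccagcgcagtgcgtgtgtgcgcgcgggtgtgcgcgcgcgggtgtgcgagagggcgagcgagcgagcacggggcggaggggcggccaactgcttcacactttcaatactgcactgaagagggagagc
Kcnn4: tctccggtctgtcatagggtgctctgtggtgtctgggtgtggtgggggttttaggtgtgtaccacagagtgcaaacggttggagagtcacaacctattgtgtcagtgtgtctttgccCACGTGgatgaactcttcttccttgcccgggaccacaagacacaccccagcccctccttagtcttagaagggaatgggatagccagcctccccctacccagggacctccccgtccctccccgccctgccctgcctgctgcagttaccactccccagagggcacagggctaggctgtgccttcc
S100a6: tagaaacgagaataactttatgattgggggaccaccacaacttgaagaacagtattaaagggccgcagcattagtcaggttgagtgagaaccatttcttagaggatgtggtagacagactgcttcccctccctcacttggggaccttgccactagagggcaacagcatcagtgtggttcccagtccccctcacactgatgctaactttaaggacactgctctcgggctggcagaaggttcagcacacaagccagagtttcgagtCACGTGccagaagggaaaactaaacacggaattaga
Snx18: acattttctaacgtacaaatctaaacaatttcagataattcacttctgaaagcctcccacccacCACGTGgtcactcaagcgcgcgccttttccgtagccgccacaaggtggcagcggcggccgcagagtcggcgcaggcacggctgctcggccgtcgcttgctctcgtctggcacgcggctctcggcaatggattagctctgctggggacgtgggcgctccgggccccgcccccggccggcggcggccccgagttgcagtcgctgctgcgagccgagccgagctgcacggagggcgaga

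The capitals begin 153 bases before the start of Bhlhe41, 133 before that of Kcnn4 and 186 before that of Snx18, and at base 15 after the start of S100a6.

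Between stages, Advanced members were set against Early members. A gene was called where 1 library reached 10 CPM and the interval of the ratio lay wholly beyond 2-fold. Of 7143 genes, 17 were higher in Advanced members (0.238%) and 1 was lower (0.014%), and the median log2 ratio was 0.05 in members beside 0.07 in other B cells. Without cells above 15000 UMIs 8 genes were higher and 2 lower, and 3 of the 8 were among the 17. Without cells with 5 or more UMIs of the cell cycle genes 15 were higher, 4 of them among the 17.

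Of the 17, Ighg2b had the most UMIs, 1026 in Advanced and 234 in Early members, with a ratio of 3.57 (3.09 to 4.13) beside 3.74 in other B cells. The difference of these ratios was not tested, and the share of T cells with an Ighg2b UMI was 42.7% in Advanced and 8.98% in Early, so free Ighg2b RNA differed between the libraries in the same direction. Without cells above 15000 UMIs its ratio in members was 2.14 and no longer passed. Ccl5, a chemokine made by T cells and NK cells, had 30 UMIs in 27 Advanced and 2 UMIs in 2 Early members, a ratio of 12.2 (3.095 to 105) beside 20.3 in other B cells, and T cells held 1730 and 281 CPM. Fas, the death receptor, had 61 UMIs in 28 Advanced and 11 UMIs in 11 Early members, a ratio of 4.51 (2.35 to 9.51) beside 1.55 in other B cells. Rab29, a small GTPase of the endolysosome, had 37 UMIs in 30 Advanced and 6 UMIs in 6 Early members, a ratio of 5.02 (2.10 to 14.5) beside 1.37. Values of Fas and Rab29 in the other settings are not given here. Of the 17, only 3 still passed without cells above 15000 UMIs, Ccl5 and Gm17657 among them, so Fas and Rab29 cannot both have passed there.

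Parm1, a membrane glycoprotein, had 31 UMIs in 9 Advanced members and 1 UMI in Early members, a ratio of 25.2 (4.20 to 1027) beside 1.40 in other B cells. The ratio of Parm1 was 11.3 without cells above 15000 UMIs and 5.03 without cells with 5 or more cell cycle UMIs, and it passed in neither setting. Sox4, a transcription factor of early lymphocytes, had 41 and 3 UMIs, a ratio of 11.1 beside 4.98, and gave 1.56 and 2.52 in those settings, past the rule in neither. Clspn, a replication checkpoint protein, had 36 and 3 UMIs, a ratio of 9.76 beside 1.23, and gave 2.52, no longer past the rule, without the cycling cells.

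For the others, 1 Advanced member held much of the count. Ly6c2, a surface protein of monocytes and memory lymphocytes, had 81 and 7 UMIs, with 55.6% of the Advanced UMIs in 1 cell, yet its ratio of 9.41 was 9.76 and still passed without the top cell of each library, and was 2.52, not past the rule, without the cycling cells. Mt1, a metallothionein, had 73 and 12 UMIs, with 47.9% in 1 cell, and its ratio of 4.95 was 1.41 without cells above 15000 UMIs, 3.86 without the top cells and 1.05 without IgG cells, past the rule in none of these. The histone genes Hist1h1b, Hist1h2ae and Hist1h3c, made during DNA replication and belonging to families of near-identical copies, had 271, 318 and 52 UMIs in Advanced and 57, 65 and 5 in Early members, with 41.7%, 51.9% and 57.7% of the Advanced UMIs in 1 cell. Pclaf, a PCNA-binding replication factor, had 119 and 25 UMIs, with 50.4% in 1 cell, and its ratio of 3.87 was 9.60 and still passed without the top cells, but was 1.17 without cells above 15000 UMIs and 1.26 without the cycling cells. All 28 Advanced UMIs of Gm17657 were in 1 cell. Cenpf, a mitotic kinetochore protein and the only gene called lower, had 19 UMIs in Advanced and 64 in Early members, with 49 of the Early UMIs in 1 cell, and its ratio of 0.241 was 0.651, not past the rule, without the top cells. Without the top cells the ratio was 2.52 for Hist1h1b, 2.11 for Hist1h2ae and 17.9 for Hist1h3c, and none of these passed. The ratio of Hist1h1b, 3.87 in all cells, was 0.755 without cells above 15000 UMIs and that of Hist1h2ae, 3.98 in all cells, was 1.26.

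**Figure D5:**
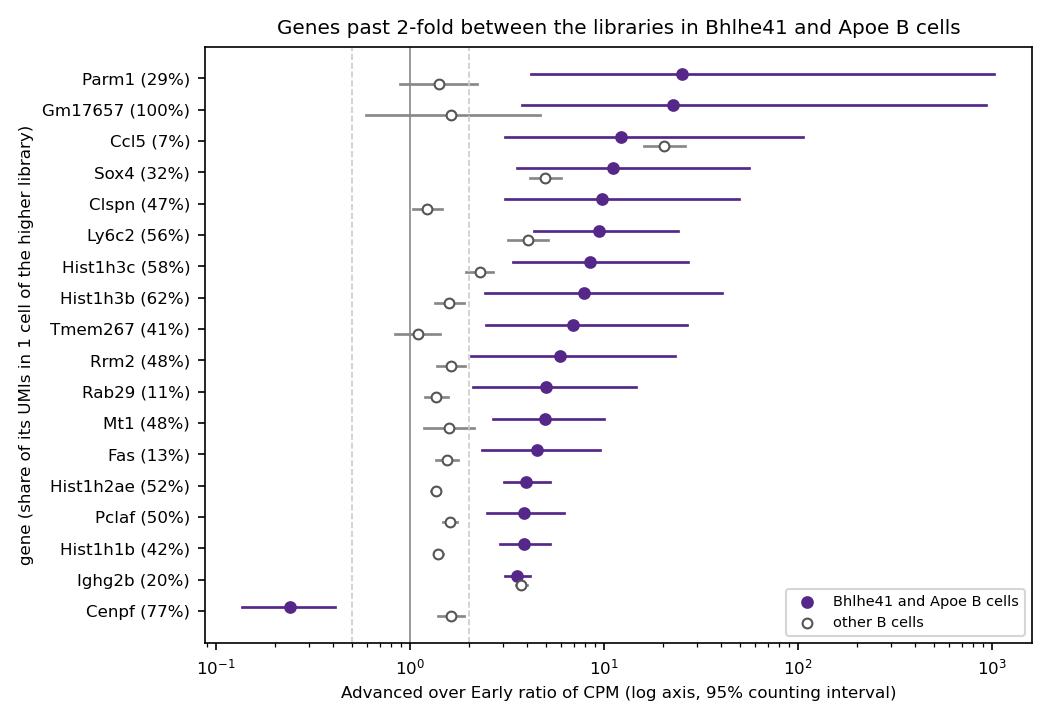
Advanced over Early ratio of CPM (x axis, log scale, 95% counting interval) for the genes past 2-fold in Bhlhe41 and Apoe B cells (filled points) and the same ratio in other B cells (open points), with the share of each gene's UMIs that 1 cell of the higher library holds beside its name. Ighg2b shows close ratios in both (3.57 and 3.74). The ratio of Fas is 4.51 in members and 1.55 in other B cells, with all cells kept, and the difference was not tested. For several genes, Hist1h3c, Ly6c2, Gm17657, Hist1h2ae, Pclaf and Cenpf among them, more of the count is in 1 cell than in all others.

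Of the genes that set members apart from other B cells, Ighg2b alone was also called between stages. By that rule 0.238% of all 7143 genes were called higher and 0.014% lower. A set of this size would thus seldom hold a called gene, and no steadiness between stages is concluded. Ccr1 stood at 49.8 CPM in Advanced and 50.2 in Early members, Cd300lf at 23.2 and 24.1 CPM and Snx18 at 32.6 and 33.8 CPM. Others, Spn, Ighg2c, Itgb1 and Plscr1 among them, were further apart in the values given above. Zbtb32 gave a ratio of 3.37 (1.86 to 6.54) and Cxcr3, a chemokine receptor for interferon-induced ligands, 3.50 (1.89 to 6.98), intervals that reach below 2-fold. Il10 gave 0.339 (0.145 to 0.735).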

How the data were processed

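The deposited values are counts: whole-number UMIs per gene and cell barcode, which the authors made with Cell Ranger (10x 3' libraries, 32285 genes listed, mm10 genome) without normalisation or correction for free RNA. Per the file headers the version was 6.0.1, while the notes the submitters gave list Cell Ranger (3.1 and 3.1.0) and Seurat 4.0.3; which version made the counts was not resolved here, and it sets which reads and barcodes are kept. The libraries held 83148059 UMIs (Advanced) and 67610110 UMIs (Early), with medians of 7832 and 6639 UMIs per barcode, and shared 20 barcodes, 0 of them members. No columns of other samples were present.

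Cells were chosen on raw UMIs as described in the report. No doublet caller was run and no doublets were removed. UMIs were summed over each group of cells in each library and divided by the group's total, times 1000000 (CPM). Ratios carry exact conditional 95% intervals, and shares carry exact Clopper-Pearson intervals. The size rule, 10 CPM and 2-fold, is stated in the report, and the 10 genes used to choose the cells were set aside. Genes named were the 15 called genes per direction with the interval that stayed farthest from a ratio of 1 (12 per direction between stages), leaving out mitochondrial, ribosomal protein and V genes, with any gene of the 34 lists, the 6 most frequent V genes and, chosen after their values were seen, Fzd6, Csf2rb, Dnase1l3, Cfp, Ccnd2, Ahr, Kcnn4, Snx18, Rab29 and A530032D15Rik. The members and the gene lists were chosen with earlier results of these data known. V genes needed 2 UMIs and more than any other.

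Alternatives were another minimum CPM, other totals and scalings, equal weight per cell, weights matched on depth, a UMI limit of 15000, removal of cells with markers of other types, of the top cell per gene, of IgG cells or of cycling cells, stricter members, and thinned cells, and, added after seeing the data, lists filtered on other B cells only. Positions are 1-based, from GENCODE on GRCm38, the assembly that mm10 names. The scripts were tested on simulated data and used Python 3.11.15, numpy 2.4.6, scipy 1.17.1, pandas 2.3.3 and matplotlib 3.10.9.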

Additional observations from a re-analysis of the deposited data

Results flagged for a closer look

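For 4 genes the Advanced over Early ratio went opposite ways in Bhlhe41 and Apoe B cells and in other B cells, and none of these differences was tested. Cenpf gave 0.241 in members and 1.63 in other B cells, with 49 of its 64 Early UMIs in 1 cell. Cdc20, an activator of the anaphase-promoting complex, gave 0.305 in members (12 Advanced and 32 Early UMIs, 25 of the Early ones in 1 cell) and 1.24 in other B cells. Klrd1, an NK cell receptor chain, gave 0.271 in members (12 and 36 UMIs, 31 of the Early ones in 1 cell) and 7.66 in other B cells. S100a4, a calcium-binding protein of memory cells, gave 0.318 in members (27 and 69 UMIs, 40 of the Early ones in 1 cell) and 4.30 in other B cells.

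For 3 genes the ratio of members over other B cells went opposite ways in the libraries, and these differences were not tested either. S100a4 gave 0.569 in Advanced and 7.69 in Early. Hmgb2, a chromatin protein abundant in dividing cells, gave 0.930 in Advanced and 1.22 in Early, with 203 of its 786 Early member UMIs in 1 cell. Igkc, the kappa light chain constant gene, gave 1.06 in Advanced and 0.925 in Early, beside the higher share of lambda-leading cells in Early members.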

How the results depend on the processing

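With 49 genes higher and 1 lower in members than in other B cells, the counts were 15 and 1 with at least 50 CPM, 113 and 1 with no minimum, 46 and 2 with each cell weighted equally, 31 and 6 with other B cells weighted to the members' depths, 36 and 2 without cells above 15000 UMIs, 38 and 3 without the top cell of each gene, 78 and 10 with stricter members (Bhlhe41 of at least 2 and a sum of at least 5), and 61 and 4 against other B cells with no Bhlhe41 or Apoe UMI. Of the 31 found at matched depth, all 31 were among the 49, and of the 16 named genes only Lipc no longer passed (5.44 fell to 2.89). Median-of-ratios scaling gave 51 and 1, and totals without immunoglobulin, ribosomal protein and mitochondrial genes 70 and 1. Removing IgG cells, chosen after seeing the data, gave 35 and 1.

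With 17 genes higher and 1 lower in Advanced than in Early members, the counts were 3 and 0 with at least 50 CPM, 32 and 4 with no minimum, 17 and 2 with median-of-ratios scaling, 29 and 3 with the other totals, 14 and 2 with equal weights, 8 and 2 without cells above 15000 UMIs, 12 and 0 without the top cell, and 12 and 6 without IgG cells (added after seeing the data). Hist1h1b turned to 0.755 without cells above 15000 UMIs and to 0.652 without cells with 5 or more cell cycle UMIs (also added after seeing the data). The causes were not tested. The Advanced over Early ratio of the members' share was 1.07 at matched depth and 1.90 with stricter members, beside 1.46.

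No paired analysis was possible because each stage is 1 pooled library. For the same reason leaving out a replicate was not possible. With 2548040 Advanced and 2072207 Early UMIs in members, a gene under 10 CPM had few UMIs and was compared in the setting with no minimum only.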
